A study of Mus musculus with 9 samples.

Results

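Gap43, Marcks, Map2 and Camk2n1 encode proteins best known from growing and mature neurons, and all 4 were measured in RNA from 3 mouse tumour cell lines. They were selected on their measured counts in these same libraries, as 4 of the 11046 genes in the deposited table, so their levels are given as a description and carry no test. All 4 passed the filter on low counts, as did 11037 genes in all. The study asked how the electrophysiological effect of brain metastases relates to their transcriptomes, and this experiment profiled the lines in culture, without treatment, by poly(A)-selected, stranded RNA sequencing.

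By their labels, 482N1 derives from non-small-cell lung cancer, B16F10-BrM from melanoma with mutant BRAF, and E0771-BrM from triple-negative breast cancer. The suffix BrM denotes a brain-metastatic derivative. All 3 carry the genotype label WT. Each had 3 libraries, named A, B and C. Nothing in the labels says whether these came from separate cultures, so the spread given here may be technical only. The cells were fed serum-containing medium with antibiotics and amphotericin B, which was DMEM for 482N1 and B16F10-BrM and RPMI with HEPES for E0771-BrM. Line and medium therefore cannot be told apart in any comparison with E0771-BrM.

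Growth-associated protein 43, encoded by Gap43, is a palmitoylated protein on the inner face of the growth cone membrane that binds calmodulin and is phosphorylated by protein kinase C. Marcks, the myristoylated alanine-rich C-kinase substrate, sits on the same membrane face, where its basic stretch binds the phosphoinositide PIP2, calmodulin and actin. Marcksl1 and Basp1 belong to the same functional group. Map2 stabilises microtubules in dendrites and is a standard label of neuronal cell bodies and dendrites. Camk2n1 is a small inhibitor of calcium/calmodulin-dependent kinase II (CaMKII), a kinase abundant at synapses.

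The stretches below are shown because they are the most basic stretches of the proteins, which in Marcks carries the interactions named above: each is the window of 25 codons with the most lysine and arginine codons in the coding sequence. The bases are coding strand, 5′ to 3′, from the GENCODE M21 transcripts of the mouse build GRCm38, which is older than the GRCm39 named by the submitters. Capitals mark lysine and arginine codons, and codons are numbered from the start codon.
Marcks: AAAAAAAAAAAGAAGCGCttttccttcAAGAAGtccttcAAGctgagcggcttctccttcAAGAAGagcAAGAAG
Marcksl1: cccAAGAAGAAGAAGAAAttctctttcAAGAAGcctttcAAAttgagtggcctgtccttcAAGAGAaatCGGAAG
Basp1: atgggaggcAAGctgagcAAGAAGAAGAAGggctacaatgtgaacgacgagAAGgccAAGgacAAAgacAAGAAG
Camk2n1: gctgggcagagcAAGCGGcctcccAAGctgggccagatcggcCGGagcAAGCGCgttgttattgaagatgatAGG

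The Marcks window held 13 basic codons against a mean of 2.1 and lay in exon 2 (chr10:37136531-37136605, minus strand, codons 145 to 169 of 309). It is the effector stretch that protein kinase C phosphorylates. The window of Marcksl1 (exon 2, chr4:129514885-129514959, plus strand) matched that of Marcks at 52 of 75 bases. The Basp1 window began at the start codon (exon 2, chr15:25364835-25364909, minus strand). In Camk2n1, whose coding sequence has 78 codons, the window covered codons 38 to 62 and crossed from exon 1 to exon 2 (chr4:138455297-138456737, plus strand). It holds most of the stretch by which the protein blocks the kinase.

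Reads shared with relatives could blur the counts, so transcripts were compared. No 50-base window of the Gap43, Map2, Camk2n1 or Basp1 transcripts occurred in a transcript of another gene, and 3 of 3999 windows of Marcks and 25 of 1556 of Marcksl1 did. Each library totalled between 7332390 and 9293348 counts. The ribosomal RNA gene Rn18s took 11.64% to 13.14% of these in 482N1, 6.401% to 7.99% in B16F10-BrM and 6.832% to 8.361% in E0771-BrM. This share thus differed by line despite the poly(A) selection. Expression is given as normalised CPM, with library totals scaled by TMM, as mean ± SD (n = 3 libraries), and a gene counts as called where its edgeR quasi-likelihood adjusted p was below 0.05. In RNA from whole cultures, fewer cells expressing a gene and less RNA per cell cannot be told apart.

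Markers of the labelled origins were measured only in part, and they set apart the melanoma line but not the breast line. Of 10 melanocyte markers 5 were in the table, and their summed level was 24600 to 25500 CPM in the B16F10-BrM libraries, 2.77 to 28.1 in 482N1 and 103 to 162 in E0771-BrM. The 2 measured of 9 epithelial markers, Krt8 and Krt18, summed to 7290 to 7910 CPM in 482N1, at most 0.125 in B16F10-BrM and 171 to 208 in E0771-BrM. The E0771-BrM sum was nearly all Krt8, at 188 ± 18.7 CPM, and Krt18 had 3, 0 and 6 counts there. The 2 measured of 8 lung epithelium markers, Abca3 and Foxa1, summed to 61.6 to 64.1 CPM in 482N1, 9.38 to 14.2 in B16F10-BrM and 1.87 to 2.88 in E0771-BrM. The 3 measured of 9 mammary epithelium markers, Areg, Erbb2 and Gata3, summed to less in E0771-BrM, at 47.9 to 64.2 CPM, than in 482N1, at 91.7 to 110 CPM, so that no marker list here singled out E0771-BrM as mammary. Of 20 neuron markers 4 were measured, Dlg4, Eno2, Syn1 and Tubb3. They summed to 40.9 to 45.6 CPM in 482N1, 38.2 to 45.7 in B16F10-BrM and 24.1 to 27.4 in E0771-BrM. None was at 0 in all libraries of a line, but Syn1 had only 0, 0 and 1 counts in B16F10-BrM libraries A, B and C. The sums hide genes that ranked the lines differently. Dlg4 was highest in 482N1, at 40.75 ± 1.74 CPM, and Tubb3 in B16F10-BrM, at 26.5 ± 3.54. Eno2 and Syn1 were highest in E0771-BrM, at 6.28 ± 0.714 and 3.15 ± 1.02 CPM. The word neuronal refers here to what the proteins are known for, not to the cells.

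Libraries A and C of 482N1 and of E0771-BrM stood apart from library B in one respect that bears on low counts. Dct, an enzyme of melanin synthesis, had 142 and 148 counts in libraries A and C of 482N1 and 14 in library B, and 353, 29 and 263 counts in E0771-BrM libraries A, B and C. As shares of the B16F10-BrM level these were 0.106%, 0.00979% and 0.109% in 482N1 and 0.26%, 0.0202% and 0.19% in E0771-BrM. Tyrp1 and Pmel were likewise lowest in library B of both lines. The other measured melanocyte markers, Gpnmb and Mitf, were lowest in library B of 482N1 but not set apart there in E0771-BrM, where Gpnmb had 557, 528 and 513 counts and Mitf 304, 292 and 267. Counts of a few reads per library are therefore given below library by library, with the values of library B named.

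Gap43 was abundant in E0771-BrM and at or near 0 in the other lines. The 3 E0771-BrM libraries, in the order A, B and C used throughout, had 2870, 3150 and 3221 counts, or 364, 378 and 402 CPM. The 482N1 libraries held 15, 4 and 2 counts and the B16F10-BrM libraries none. The lowest E0771-BrM library was far above the highest of any other line, and 482N1 lay above B16F10-BrM without overlap. The mean was 381 ± 18.9 CPM in E0771-BrM and 0.89 ± 0.912 in 482N1, a log2 fold change of 8.74 ± 0.18 (SE). Without library A of 482N1 the log2 fold change was 9.95. Against B16F10-BrM the level in E0771-BrM was at least 3320-fold higher, with a floor of 3 counts over the group (0.115 CPM).

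The 482N1 counts of Gap43 were highest in library A. Hspb8, a small heat shock gene that was also high in E0771-BrM alone, had 5, 0 and 0 counts in the same libraries, and the matrix metalloproteinase gene Mmp3 had 2, 1 and 1. Itgb7, an integrin gene at 116 ± 13.7 CPM in E0771-BrM, was instead highest in library B of 482N1, with 14, 20 and 7 counts. The Gap43 counts equalled 0.507%, 0.126% and 0.0665% of its E0771-BrM level. Whether the 482N1 cells made these transcripts was not tested. In B16F10-BrM, Gap43 was one of 204 genes of the table, or 1.85%, with no count in any library.

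Marcks had the opposite distribution. Counts were 1703, 1972 and 1810 in 482N1, 2880, 2554 and 2890 in B16F10-BrM, and 4, 0 and 4 in E0771-BrM. Every B16F10-BrM library, at 300.0 to 337 CPM, lay above every 482N1 library, at 220 to 237. The means were 319 ± 18.4 and 229 ± 8.86 CPM, a log2 fold change of 0.48 ± 0.08 between B16F10-BrM and 482N1, against -9.37 ± 0.18 for E0771-BrM against 482N1 and -9.85 ± 0.18 against B16F10-BrM. As ratios of summed counts the latter 2 were 694-fold (95% counting interval 352 to 1610) and 964-fold (489 to 2230) lower in E0771-BrM.

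The 8 Marcks counts of E0771-BrM fell in libraries A and C, at 0.159% and 0.156% of the B16F10-BrM level. Pmel, a melanosome gene, stood at 0.147%, 0.0222% and 0.15% of its B16F10-BrM level in E0771-BrM, and Tyrp1 at 0.224%, 0.0177% and 0.202%. Gpnmb, at 2.59%, 2.32% and 2.34%, did not show this dip in library B. Marcks was thus lowest in the same library as 3 of the 5 measured melanocyte markers, on 4, 0 and 4 counts, and the source of its counts was not tested. In library B alone, with no count, the lower bound of the log2 difference was -9.36 against 482N1 and -9.79 against B16F10-BrM.

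**Figure D1:**
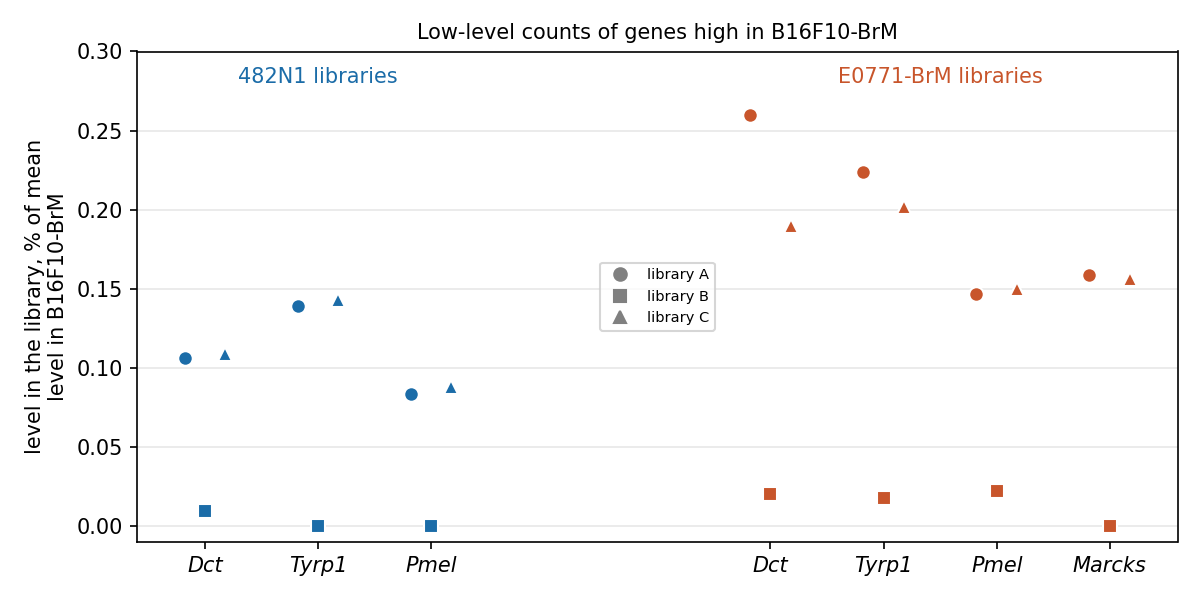
Level of 3 melanocyte genes and of Marcks in each library of 482N1 and E0771-BrM, as a percentage of the mean level in B16F10-BrM (vertical axis, linear). Circles, squares and triangles are libraries A, B and C. Library B lies at or below 0.0222% throughout, and Marcks in E0771-BrM is at 0.159%, 0% and 0.156%. Gpnmb and Mitf, which show no such dip in E0771-BrM, are not plotted. Marcks is not shown for 482N1, where its level was 68.8% to 74.4% of that in B16F10-BrM.

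Map2 was the least counted of the 4. Its counts were 153, 157 and 164 in 482N1, 68, 88 and 84 in B16F10-BrM and 0 in each E0771-BrM library. The 482N1 libraries, at 18.9 to 20.8 CPM, lay above those of B16F10-BrM, at 7.08 to 11.04, without overlap. The means were 19.8 ± 0.948 and 9.3 ± 2.02 CPM, a log2 fold change of -1.10 ± 0.18 for B16F10-BrM against 482N1. E0771-BrM was at least 160-fold below 482N1 and at least 75.2-fold below B16F10-BrM (floor 3 counts over the group, 0.124 CPM), and Map2 was one of 92 genes with no count in any of its libraries. The spread within B16F10-BrM, 21.7% of the mean, was the widest among the line means above 1 CPM of these 4 genes.

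Camk2n1 was highest in 482N1, lower in B16F10-BrM and near 0 in E0771-BrM. Counts were 4027, 4428 and 4852 in 482N1, 179, 121 and 175 in B16F10-BrM and 2, 0 and 2 in E0771-BrM. No library of one line overlapped another line. The means were 556 ± 51.7, 18.1 ± 2.65 and 0.168 ± 0.145 CPM. The log2 fold change was -4.94 ± 0.10 for B16F10-BrM against 482N1 and -6.65 ± 0.31 for E0771-BrM against B16F10-BrM. E0771-BrM lay 3370-fold (95% counting interval 1310 to 12400) below 482N1 and 110-fold (42.7 to 406) below B16F10-BrM. The 4 counts in E0771-BrM were again in libraries A and C, at 0.0457% and 0.0449% of the 482N1 level, where the keratin gene Krt18 stood at 0.00911%, 0% and 0.0179% in libraries A, B and C. Their source was not tested.

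**Figure D2:**
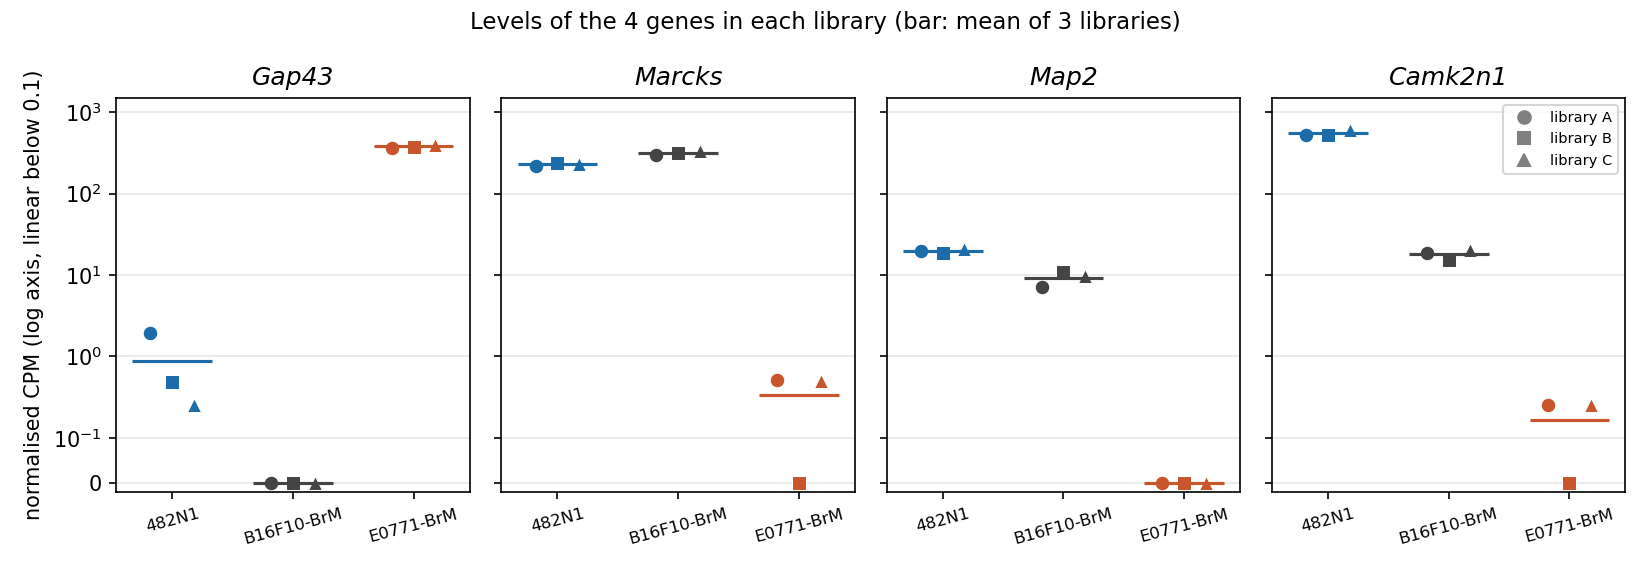
Normalised CPM of Gap43, Marcks, Map2 and Camk2n1 in each library (vertical axis logarithmic, linear below 0.1 so that 0 can be shown), by cell line, with the mean of 3 libraries as a bar. Gap43 is at 364 to 402 CPM in E0771-BrM and at most 1.93 elsewhere, while Marcks, Map2 and Camk2n1 are highest in B16F10-BrM or 482N1 and at most 0.508 CPM in E0771-BrM.

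In all 12 pairings of gene and comparison the libraries of the 2 lines did not overlap. This says little by itself, because the genes were selected on these values and most genes differed. The share of all genes whose libraries do not overlap is not given here, and the called shares that follow are a different measure. At an adjusted p below 0.05, 77.8% of all genes tested were called between B16F10-BrM and 482N1 (38% higher and 39.9% lower in B16F10-BrM), 78.1% between E0771-BrM and 482N1 (37.7% and 40.4%) and 73.7% between E0771-BrM and B16F10-BrM (37.2% and 36.5%). For Gap43 the order of lines was E0771-BrM, 482N1, B16F10-BrM. For Marcks it was B16F10-BrM, 482N1, E0771-BrM, and Map2 and Camk2n1 shared the order 482N1, B16F10-BrM, E0771-BrM.

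Gap43 and Marcks were set beside Marcksl1 and Basp1 per kilobase of exon, since the transcripts differ in length. A different gene led this group in each line, but Gap43 and Marcks entered it as members selected on these same counts. In 482N1, Basp1 had 330.0 ± 14.9 CPM per kb, or 80.7% of the sum of the 4, followed by Marcks at 56.5 ± 2.18 and Marcksl1 at 22.2 ± 1.69. In B16F10-BrM, Marcks led with 78.8 ± 4.54 CPM per kb, or 66.2%, ahead of Basp1 at 22.7 ± 1.57. In E0771-BrM, Gap43 led with 250.0 ± 12.4 CPM per kb, or 91.2%, and Marcksl1 held nearly all of the rest at 23.5 ± 2.41. The summed level was 409 ± 14.0 CPM per kb for 482N1, 274 ± 12.4 for E0771-BrM and 119 ± 2.64 for B16F10-BrM. Exon lengths came from GENCODE M21 and may differ from those of the authors' annotation.

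**Figure D3:**
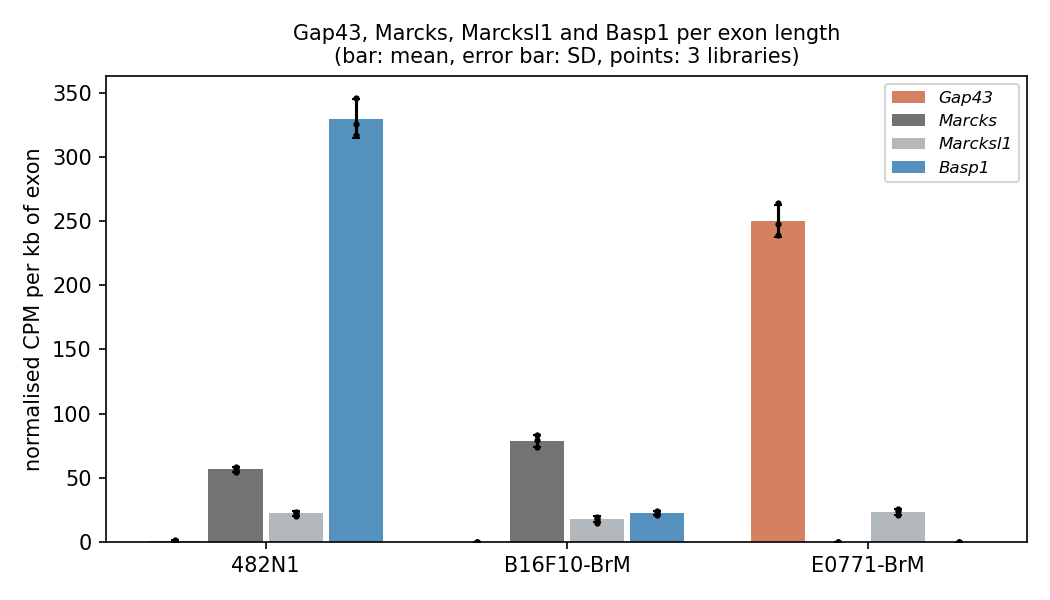
Normalised CPM per kilobase of exon (vertical axis, linear) of Gap43, Marcks, Marcksl1 and Basp1 by cell line, with bars for the mean, error bars for the SD and points for the 3 libraries. Basp1 is the tallest bar in 482N1 (330.0), Marcks in B16F10-BrM (78.8) and Gap43 in E0771-BrM (250.0), whereas the line means of Marcksl1 range from 17.5 to 23.5.

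Basp1, which like Marcks is myristoylated and binds membranes, was not among the 4 selected genes. It had 663 ± 30 CPM in 482N1 against 45.6 ± 3.16 for B16F10-BrM, and its E0771-BrM counts were 4, 1 and 1, a log2 fold change of -11.30 ± 0.17 for E0771-BrM against 482N1 (edgeR adjusted p = 5.25e-45). Its order of lines was that of Camk2n1. Marcksl1, the close relative of Marcks, had 35.6 ± 2.72, 28.1 ± 3.74 and 37.7 ± 3.86 CPM in 482N1, B16F10-BrM and E0771-BrM. It was lower in B16F10-BrM than in 482N1 by edgeR (log2 fold change -0.34 ± 0.12, adjusted p = 0.00904), a call lost without library B of B16F10-BrM (adjusted p = 0.0854). E0771-BrM and 482N1 differed in Marcksl1 by 0.08 ± 0.12 on the log2 scale (edgeR adjusted p = 0.525). Against B16F10-BrM, Marcksl1 was higher in E0771-BrM by 0.42 ± 0.12 (edgeR adjusted p = 0.00144). That difference was 0.24 when 482N1 and E0771-BrM were each represented by library B.

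Genes with the profile most like each member were found from mean log2 CPM over the 3 lines (9 libraries), centred per gene, as the smallest root mean square difference among 10307 genes. For Gap43 these were Mmp3 (0.507), Hspb8 (0.659) and the integrin gene Itgb7 (1.14), and 2 genes lay within 1 log2 unit. For Marcks they were the adhesion gene Cadm1 (0.387), the RNA-binding protein gene Igf2bp3 (0.449) and Clmn (0.714), with 14 genes within 1 unit. Map2 had 175 genes that close, led by Sh3bp4 (0.0526), the insulin receptor substrate gene Irs1 (0.0627) and B4galt6 (0.0823). Camk2n1 had 13, led by the adhesion gene Alcam (0.158), Pmepa1 (0.272) and Hcfc1r1 (0.318). Among the members, Marcks, Map2 and Camk2n1 lay 1.65 to 2.26 from one another and Gap43 lay 7.31 to 8.87 from each of them. These likenesses rest on 3 lines and are a description.

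Cadm1, like Marcks, had no count in library B of E0771-BrM. It had 372 ± 7.98 CPM in 482N1, 273 ± 8.92 in B16F10-BrM, and 9, 0 and 6 counts in E0771-BrM. The other genes nearest to Marcks were split on this. Igf2bp3 had 0, 0 and 2 counts in E0771-BrM, so that library A was at 0 as well as library B. Clmn had 1, 3 and 1, highest in library B. Alcam, nearest to Camk2n1, had 594 ± 34.6 and 25.2 ± 0.976 CPM in 482N1 and B16F10-BrM and 2, 1 and 3 counts in E0771-BrM.

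Other genes of these pathways were taken from 6 lists, of which the 4 members were left out. Of 34 growth cone membrane and actin proteins 16 were measured. Between B16F10-BrM and 482N1, 6 were higher and 10 lower in B16F10-BrM. The list's median log2 fold change was -0.47, that of all genes tested -0.0361. Between E0771-BrM and 482N1, 6 were higher and 7 lower (median -0.08, all genes -0.044), and between E0771-BrM and B16F10-BrM 6 were higher and 9 lower (-0.49, all genes 0.0179). The called shares, 100.0%, 81.2% and 93.8%, stood beside the 77.8%, 78.1% and 73.7% of all genes.

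Several genes of that list were highest in E0771-BrM, as Gap43 was, or lowest there, as Marcks was. Fscn1, which bundles actin in filopodia, was highest in E0771-BrM at 332 ± 19.3 CPM, with 158 ± 11.8 in 482N1 and 53.5 ± 4.81 in B16F10-BrM. L1cam, an axonal adhesion molecule, had 38.0 ± 3.04 CPM in E0771-BrM, 11.7 ± 1.87 in B16F10-BrM and 0.327 ± 0.366 in 482N1 (E0771-BrM against 482N1 6.77 ± 0.29 on the log2 scale, edgeR adjusted p = 1.31e-25). Enah, an actin polymerisation factor of growth cone filopodia, was low there, at 2.82 ± 0.78 CPM against 106 ± 5.71 in 482N1 and 122 ± 8.57 in B16F10-BrM (E0771-BrM against B16F10-BrM -5.43 ± 0.14, edgeR adjusted p = 3.03e-35). Rtn4, which encodes the neurite growth inhibitor Nogo, was lowest in B16F10-BrM, at 128 ± 5.52 CPM against 487 ± 14.0 in 482N1 and 482 ± 16.7 in E0771-BrM (B16F10-BrM against 482N1 -1.93 ± 0.07, edgeR adjusted p = 1.37e-28). Gnao1, the G protein subunit that is abundant in growth cones, had 2 counts in 482N1 and 12.5 ± 0.893 and 7.45 ± 1.61 CPM in B16F10-BrM and E0771-BrM.

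Of 50 listed microtubule-associated proteins other than Map2, 35 were measured. In B16F10-BrM 18 were higher and 10 lower than in 482N1 (median 0.41), in E0771-BrM 15 were higher and 10 lower than in 482N1 (0.12), and E0771-BrM had 10 higher and 16 lower than B16F10-BrM (-0.28). The called shares were 80.0%, 71.4% and 74.3%, near those of all genes. Map4, the widely expressed relative of Map2, had 66.5 ± 0.999, 69.2 ± 3.15 and 74.3 ± 2.68 CPM in 482N1, B16F10-BrM and E0771-BrM and was called in no comparison by edgeR (adjusted p = 0.568, 0.0911 and 0.275 in the order B16F10-BrM against 482N1, E0771-BrM against 482N1 and E0771-BrM against B16F10-BrM).

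Mapt, which encodes the axonal protein tau, was highest in B16F10-BrM at 19.1 ± 1.88 CPM, with 2.03 ± 0.687 in 482N1 and 1.12 ± 0.466 in E0771-BrM (B16F10-BrM against 482N1 3.22 ± 0.24, edgeR adjusted p = 4.77e-17). Map1b, an early neuronal microtubule protein, was highest in E0771-BrM at 430.0 ± 29.4 CPM, with 240.0 ± 3.78 in 482N1 and 158 ± 15.4 in B16F10-BrM. Map1a, its counterpart in mature neurons, had 6 counts in 482N1 but 11.4 ± 1.51 CPM in B16F10-BrM and 8.22 ± 1.96 in E0771-BrM (E0771-BrM against 482N1 4.96 ± 0.40, edgeR adjusted p = 1.45e-15). Map6, which protects microtubules from cold, rose in the order 482N1, B16F10-BrM and E0771-BrM, at 1.3 ± 0.851, 7.99 ± 1.14 and 31.0 ± 2.18 CPM. Dclk1, a doublecortin-like kinase of migrating neurons, had 85.2 ± 7.92 CPM in B16F10-BrM and 19.3 ± 1.72 in E0771-BrM against 8 counts in 482N1. Dpysl3, a mediator of semaphorin signals in growth cones, was near 0 in E0771-BrM at 10 counts, with 47.7 ± 1.67 CPM in B16F10-BrM and 15.8 ± 2.46 in 482N1.

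Tubulins and neuronal intermediate filaments had 15 of 23 genes measured. Between B16F10-BrM and 482N1, 7 were higher and 5 lower in B16F10-BrM (median 0.38). In E0771-BrM 11 were higher and 4 lower than in 482N1 (0.71), and 7 were higher and 6 lower than in B16F10-BrM (0.42). The called shares were 80.0%, 100.0% and 86.7%, beside 77.8%, 78.1% and 73.7% of all genes. Tubb3, the tubulin used as a neuron marker, had 26.5 ± 3.54 CPM in B16F10-BrM, 5.9 ± 0.241 in E0771-BrM and 10 counts in 482N1 (B16F10-BrM against 482N1 5.94 ± 0.28, edgeR adjusted p = 1.67e-24). Tubb2b had no count in B16F10-BrM and 105 ± 11.4 and 128 ± 8.48 CPM in 482N1 and E0771-BrM, so that it was at least 917-fold and 1120-fold higher there. Tubulin genes are close in sequence, and how reads were divided among them is not given in the sources used here.

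Camk2n1 acts on CaMKII, and 19 of 32 other calmodulin and calmodulin kinase genes were measured. In B16F10-BrM 6 were higher and 8 lower than in 482N1 (median -0.08), in E0771-BrM 9 were higher and 7 lower than in 482N1 (0.05), and 7 were higher and 5 lower in E0771-BrM than in B16F10-BrM (0.10). The called shares were 73.7%, 84.2% and 63.2%, beside 77.8%, 78.1% and 73.7% of all genes. Of the kinase itself, the catalytic subunit gene Camk2d was highest in 482N1, where Camk2n1 was highest too, at 245 ± 19.1 CPM against 38.5 ± 2.47 in B16F10-BrM and 39.3 ± 0.884 in E0771-BrM. Its log2 fold changes against 482N1 were -2.66 ± 0.09 and -2.64 ± 0.09 (edgeR adjusted p = 4.78e-31 and 1.31e-30). E0771-BrM and B16F10-BrM differed in Camk2d by 0.03 ± 0.09 (edgeR adjusted p = 0.804), while Camk2n1 differed between them by -6.65 ± 0.31.

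The other CaMKII inhibitor gene, Camk2n2, ran against Camk2n1 in the comparisons with 482N1. It was lowest in 482N1 at 1.26 ± 0.78 CPM, against 10.5 ± 1.71 for B16F10-BrM and 12.4 ± 2.39 for E0771-BrM, with log2 fold changes against 482N1 of 3.05 ± 0.29 and 3.29 ± 0.28 (edgeR adjusted p = 3.44e-13 and 1.98e-14). E0771-BrM and B16F10-BrM differed in Camk2n2 by 0.24 ± 0.20 (edgeR adjusted p = 0.272). Camk2g, a further catalytic subunit gene, had 17.4 ± 1.79, 22 ± 1.23 and 13.0 ± 1.37 CPM in 482N1, B16F10-BrM and E0771-BrM. The genes Camk2a and Camk2b are not analysed here. The calmodulin genes encode the protein that binds Gap43, Marcks and the kinase. Of these, Calm2 and Calm3 differed between lines by -0.51 to 0.50 on the log2 scale, and Calm2 had 517 ± 58.6, 733 ± 34.5 and 516 ± 55.4 CPM in 482N1, B16F10-BrM and E0771-BrM. Camk1d, a kinase of the related CaMKI group, had no count in B16F10-BrM and 13.0 ± 2.64 and 36.5 ± 5.0 CPM in 482N1 and E0771-BrM.

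Protein kinase C phosphorylates Gap43 and Marcks, and 16 of 22 genes of this family and its binding partners were measured. In B16F10-BrM 5 were higher and 10 lower than in 482N1 (median -0.59), in E0771-BrM 4 were higher and 9 lower than in 482N1 (-0.45), and 8 were higher and 3 lower in E0771-BrM than in B16F10-BrM (0.23). The called shares were 93.8%, 81.2% and 68.8%, beside 77.8%, 78.1% and 73.7% of all genes. The conventional isoform gene Prkca had 95.7 ± 1.98 CPM in 482N1, 35.5 ± 1.69 in E0771-BrM and 10.7 ± 1.77 in B16F10-BrM (B16F10-BrM against 482N1 -3.17 ± 0.12, edgeR adjusted p = 7.8e-29). Prkcd, a calcium-independent isoform gene, had the same order at 52.4 ± 2.77, 37.0 ± 1.49 and 18 ± 1.37. Prkcz, an atypical isoform gene, was lowest in 482N1 and highest in E0771-BrM, at 2.51 ± 1.04, 29.7 ± 1.73 and 13.8 ± 1.7 in 482N1, E0771-BrM and B16F10-BrM. Prkce was lowest in 482N1, at 18.5 ± 1.9 CPM against 36.0 ± 3.9 in B16F10-BrM and 40.8 ± 4.04 in E0771-BrM. Prkci, the other atypical isoform gene, was highest in 482N1, at 21.8 ± 1.22 CPM against 14.8 ± 2.13 and 10.2 ± 1.58.

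The enzymes that attach lipid anchors or turn over PIP2 were measured for 47 of 54 listed genes. In B16F10-BrM 14 were higher and 22 lower than in 482N1 (median -0.05), in E0771-BrM 17 were higher and 22 lower than in 482N1 (-0.13), and 18 were higher and 18 lower in E0771-BrM than in B16F10-BrM (-0.01). The called shares were 76.6%, 83.0% and 76.6%, near the 77.8%, 78.1% and 73.7% of all genes. Pip5k1b, a kinase that makes PIP2, shared the absence of Map2 from E0771-BrM, with no count there and 76.1 ± 8.12 and 18.4 ± 3.22 CPM in 482N1 and B16F10-BrM. Pip5k1c, which makes PIP2 at synapses, was highest in E0771-BrM, at 56.6 ± 2.91 CPM against 14.6 ± 2.2 in 482N1 and 16.9 ± 1.73 in B16F10-BrM. Nmt2, an enzyme that adds myristate, had 285 ± 13.6 CPM in E0771-BrM, 180.0 ± 2.77 in 482N1 and 73.2 ± 2.64 in B16F10-BrM. Zdhhc12, of the palmitoyltransferase family, had 2.32 ± 0.609 CPM in B16F10-BrM against 38.6 ± 3.12 in 482N1 and 19.1 ± 3.32 in E0771-BrM.

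**Figure D4:**
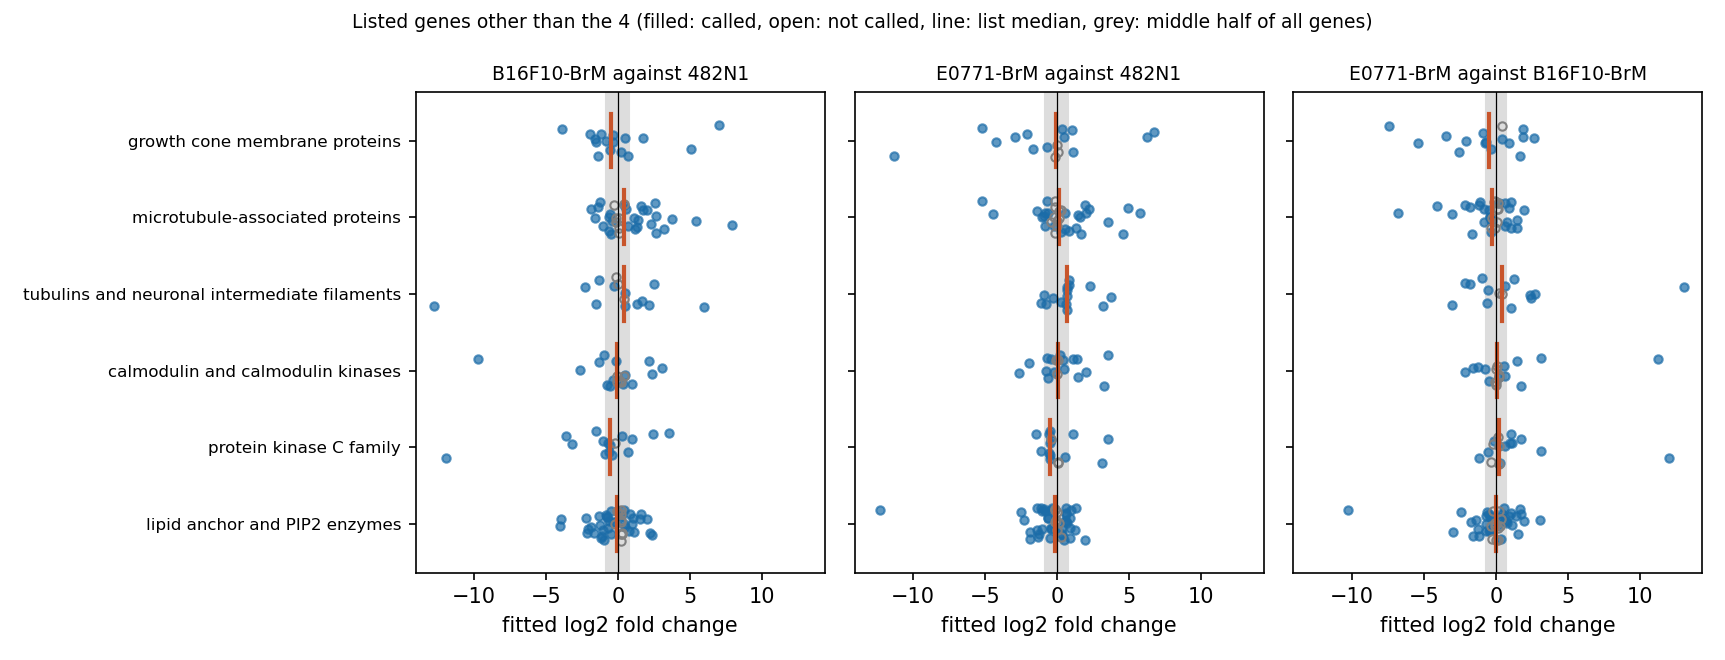
Fitted log2 fold changes (horizontal axis) of the measured genes of 6 lists (rows), without the 4 members, in each comparison of lines. Filled points were called at an adjusted p below 0.05 and open points were not, orange lines are list medians, and the grey band is the interquartile range of all genes tested. The list medians lie between -0.59 and 0.71, while single genes such as Basp1 (-11.30 in E0771-BrM against 482N1) lie far outside the band.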

How the data were processed

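The authors deposited raw read counts per gene symbol for 9 libraries. Per the submitters' processing notes, FastQC, TopHat2 2.0.10, Bowtie 1.0.0, SAMtools 0.1.19, Cufflinks 2.2.1 and the build GRCm39 were used; the counting tool, the annotation and the way genes entered the table are not given in the sources used here. Genes that are not in the table were not analysed here.

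The analysis used edgeR 4.0.16 under R 4.3.3. filterByExpr removed 9 genes, libraries were scaled by TMM, and all 9 libraries entered 1 robust quasi-likelihood model with a term for each line. Pairwise F tests were 2-sided, with Benjamini-Hochberg adjustment over 11037 genes. The SE of a log2 fold change was its size divided by the square root of F. For a line with no count, folds are lower bounds against 3 counts over the group. Ratios have exact 95% binomial counting intervals, which do not cover more than counting error, because PCR copies are not separate molecules. Exon lengths and sequences came from GENCODE M21.

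The members and lists were chosen with earlier results of these data known. Named genes were the members, fixed relatives and partners, the 3 nearest profiles per member, and, per list and comparison, the 2 higher and 2 lower called genes with the largest change whose libraries did not overlap. Those printed are a selection made after their values were seen, and some items are not reported here. Same-lettered libraries were checked for shared deviations from their line means over 4172 genes. Pearson's r was 0.111 to 0.197 for E0771-BrM with B16F10-BrM, above the threshold of 0.1 for each letter. The values reported still come from the model without a term for the letter, which entered only as an alternative. The procedure was also run on simulated data, of which no result is given here. Alternatives used DESeq2 1.42.0 and limma 3.58.1, other scalings and filters, and a block for the library letter. Others left out single libraries, the ribosomal RNA genes or the third line, or used library B alone of 482N1 and E0771-BrM.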

Additional observations from a re-analysis of the deposited data

How the results depend on the processing

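Under 19 alternatives, each of the 228 recomputed differences of the 4 members kept its sign, and all 399 counts of called genes stayed within 1.5 times the value reported. Both are weak checks. The members were selected on these same libraries, and with most genes called a count had little room to rise. With the library letter as a replicate block 8595, 8623 and 8162 genes were called in the order B16F10-BrM against 482N1, E0771-BrM against 482N1 and E0771-BrM against B16F10-BrM, and no named call was lost. For the first 2 comparisons r of same-lettered deviations was -0.0519 to 0.0362 and 0.0889 to 0.207. The second range lies on both sides of the threshold of 0.1, and no r of unlike letters is given here. Whether the letters of E0771-BrM and 482N1 are paired is therefore undecided. In both of these lines Dct, Tyrp1 and Pmel were lowest in library B. In 15 cases a member difference moved by more than the spread between libraries. With single libraries left out, the log2 difference of Gap43 ranged from 8.31 to 9.95 for E0771-BrM against 482N1, and its lower bounds from -3.40 to -1.68 for B16F10-BrM against 482N1 and from 11.04 to 11.73 for E0771-BrM against B16F10-BrM. Those of Map2 ranged from -7.35 to -6.71 for E0771-BrM against 482N1 and from -6.39 to -5.62 against B16F10-BrM. When 482N1 and E0771-BrM were each represented by library B they were -5.71 and -4.69, and those of Camk2n1, then at 0 in E0771-BrM, were -10.53 and -5.65. Of the 15, 14 are lower bounds. A bound becomes smaller by construction when the line at 0 loses a library, and the Gap43 bound of -1.68 came from leaving out library A of 482N1, which held 15 of its 21 counts. Of the named list genes 12 lost a call under at least 1 alternative (43 calls in all, none with a changed sign), among them Mapt for E0771-BrM against 482N1, Camk2g and Calm3. Depth limits the statements on lines at 0 to a level below 0.115 CPM in B16F10-BrM and 0.124 CPM in E0771-BrM.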

Other observations

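Of 11 astrocyte and oligodendrocyte markers 4 were measured. None was at 0 in all libraries of a line, but Aldh1l1 had only 3, 0 and 2 counts in E0771-BrM libraries A, B and C. The myelin gene Mbp had 240, 272 and 249 counts in libraries A, B and C of 482N1, 401, 294 and 315 in B16F10-BrM and 59, 67 and 54 in E0771-BrM. Cnp, a further gene of myelinating cells, had 126, 135 and 97 counts in 482N1, 86, 87 and 95 in B16F10-BrM and 25, 33 and 18 in E0771-BrM. For Mbp and Cnp, as for Marcks, Map2 and Camk2n1, E0771-BrM was the lowest line. These markers were chosen for a check of cell type and no difference among them was tested here.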
